A study of Danio rerio with 6 samples.

Results

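The DNA damage checkpoint genes described here are the kinase genes *atm*, *atr*, *chek1* and *chek2* and 6 genes whose proteins act with them, *atrip*, *topbp1*, *clspn*, *rad17*, *hus1* and *rad9a*. They were chosen by name, with earlier results of these data known. A gene was measured where a row of the array table carried its symbol and no other. This held for 8 of the 10 genes, out of 19260 genes with such a row. For *chek2* there were 2 rows, both shared with *gstt2*, so they give no value for *chek2* alone. No row carried the name *hus1*, which is not analysed here. A gene with several rows, among the 8 only *atm* with 2, was represented by the row with the highest mean.

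RNA came from whole zebrafish embryos, which were kept from 4 dpf in 500 nM camptothecin (CPT), a poison of topoisomerase 1, for 16 hours and harvested at 5 dpf. There were 3 arrays of tdp1WT and 3 of tdp1-/- embryos, numbered 1 to 3 in each genotype and taken from 3 biologically independent experiments. The tdp1-/- fish carry CRISPR-Cas9 deletion alleles of *tdp1*, SH475 with itself or with SH476, and their background mixes London wild-type and nacre fish. The sources used here do not give the allele pair of the embryos on the arrays or how many embryos made up a sample. All 6 arrays are of CPT-treated embryos, so the comparison is between genotypes under CPT, and the response to CPT itself was not measured on them. Each value is a log2 level after the authors' robust multi-array average (RMA), 1 for each transcript cluster. Levels are compared between arrays and never between genes, since each cluster has its own probes.

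The checkpoint is a relay of kinases that holds the cell cycle and protects replication forks when DNA is damaged. Atm is recruited to double-strand breaks and passes the signal to Chek2, while Atr, with its partner Atrip, is recruited to single-stranded DNA at stalled forks and passes it to Chek1. Atr needs an activator, TopBP1, which meets it at a ring of Rad9, Rad1 and Hus1 that Rad17 loads onto DNA, and Claspin, the product of *clspn*, brings Chek1 to Atr. CPT traps topoisomerase 1 on DNA, and forks that run into the trapped enzyme are a known source of both kinds of signal. Much of this signalling is phosphorylation of proteins, which arrays of RNA do not read.

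Before the checkpoint genes, the arrays were checked as a whole. The *tdp1* cluster had a log2 fold change of -0.40 in tdp1-/- against tdp1WT (95% interval of limma from -0.79 to -0.01). Markers of 9 tissues of the larva were present, with 28 of 29 measured markers above the array median on all 6 arrays. Array medians ran from 4.66 to 4.87 on the log2 scale. By the RefSeq table of assembly GRCz12tu, *tdp1* lies on chromosome 17 and none of the 8 measured checkpoint genes does. Of the other genes named below, *cdk1* and *kif11* lie on chromosome 17 too. The part of linkage to *tdp1* in their values was not tested. Here a gene is called when the unadjusted p from limma is under 0.05 and the fold change is over 1.2 either way, which is the fold threshold of the study's methods.

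All 8 measured checkpoint genes had a lower mean in tdp1-/- than in tdp1WT embryos, but none was called. The log2 fold changes ran from -0.05 for *atrip* to -0.49 for *topbp1*, with a median of -0.21, where the median over all 19260 genes, each at its highest row, was -0.005 and over all 75212 rows 0.03. Of all genes, 51.4% were below 0. No member had an unadjusted p under 0.05 in limma, and of all genes 1.04% were called lower and 0.852% higher. After Benjamini-Hochberg adjustment over all rows the adjusted p of every member rounded to 1 in limma. At the row used for each gene, the arrays of the genotypes overlapped in all 8 genes, while over all genes 4.08% were lower and 3.64% higher without overlap. With 3 arrays against 3, the exact permutation test cannot give a p below 0.1.

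**Figure D1:**
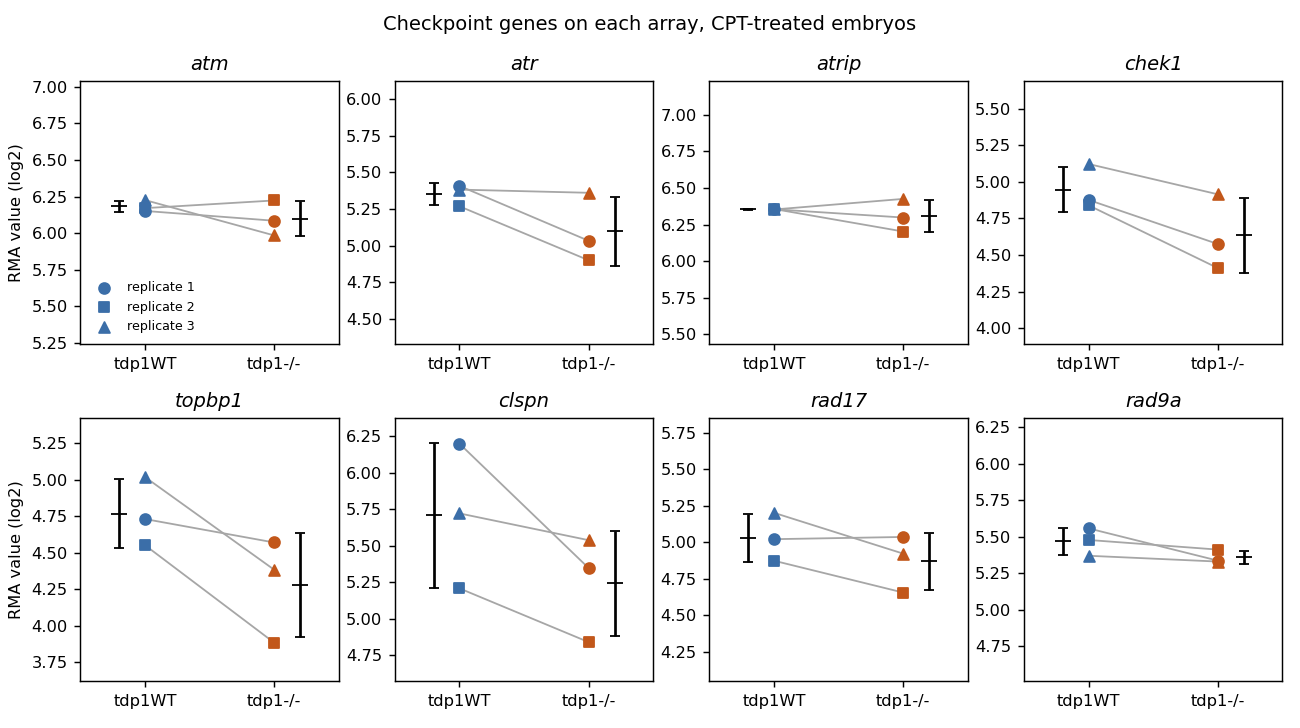
RMA value (log2, vertical axis, the same span in each panel) of the 8 measured checkpoint genes on each of the 6 arrays, tdp1WT in blue and tdp1-/- in orange, with grey lines joining same-numbered arrays and black bars giving the mean ± SD (n = 3 arrays). The lines of *chek1*, *topbp1*, *clspn*, *atr* and *rad9a* all slope down, and the genotypes overlap in every panel.

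Whether same-numbered arrays share an experiment is not stated in the sources used here. A fit with the replicate number as a block compares the genotypes within same-numbered pairs, and its calls rest on this pairing. With the block, 3 of the 8 genes were called lower, *topbp1*, *clspn* and *chek1*, and none higher, where 2.49% of all genes were called lower and 1.55% higher. The lowest adjusted p among the 8 was 0.752 with the block (limma), so no member passed after adjustment in either fit. Nor did any other row. Over all rows the lowest adjusted p in limma was 0.0608 without the block and 0.515 with it. For *tdp1* itself it was 0.769 with the block. In 5 of the 8 genes the tdp1-/- array was below the tdp1WT array in all 3 same-numbered pairs, and in none was it above in all 3. Of all genes, 16.8% were lower and 14.4% higher in all 3 pairs. The median difference of the members was -0.19 in pair 1, -0.29 in pair 2 and -0.20 in pair 3. With only 2 pairs in the blocked fit the calls mostly ended. *topbp1* alone was called without pair 1, none was called without pair 2, and *clspn* alone was called without pair 3.

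Of the genes at the head of the relay, *atr* had a lower log2 fold change than *atm*. The *atr* cluster measured 5.41, 5.27 and 5.38 in tdp1WT replicates 1, 2 and 3 and 5.03, 4.90 and 5.36 in tdp1-/- replicates 1, 2 and 3 (log2 value). The tdp1-/- array was the lower in every pair, by clear steps in replicates 1 and 2 and hardly at all in replicate 3, and the third tdp1-/- array lay within the tdp1WT range. The genotype difference came to -0.26 on the log2 scale (standard error 0.16, 95% interval from -0.64 to 0.13), or 1.19-fold lower, and the exact permutation test gave p = 0.2, two-sided. Without tdp1-/- replicate 3 the difference was -0.39 and *atr* was called, and without tdp1-/- replicate 2 it was -0.16 with no call. The partner gene *atrip* measured 6.35, 6.36 and 6.35 in tdp1WT and 6.30, 6.20 and 6.43 in tdp1-/- embryos, a log2 fold change of -0.05 (95% interval from -0.36 to 0.27). Its tdp1WT arrays were nearly alike, with an SD of 0.0017, and the tdp1-/- arrays lay on both sides of them.

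For *atm*, whose kinase answers double-strand breaks, the values were 6.15, 6.17 and 6.23 in tdp1WT and 6.08, 6.22 and 5.98 in tdp1-/- embryos. Pair 2 went the other way from pairs 1 and 3, and the log2 fold change was -0.09 (95% interval from -0.40 to 0.23). The other *atm* row gave -0.15 (95% interval from -0.46 to 0.16), lower in all 3 pairs and without overlap between the genotypes. Of all genes, 4.08% were lower without overlap. Neither row was called with or without the block. Whether the difference of *atr* exceeds that of *atm* was not tested.

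The gene of the activator of Atr, *topbp1*, had the lowest log2 fold change of the 8. Its row is dim, with a mean over all arrays below the median of all row means. *topbp1* measured 4.73, 4.55 and 5.02 in tdp1WT and 4.57, 3.89 and 4.38 in tdp1-/- embryos. The means were 4.77 ± 0.24 and 4.28 ± 0.35 (SD, n = 3 arrays of each genotype), and only the tdp1-/- array of replicate 1 reached into the tdp1WT range. This is 1.40-fold lower, a log2 fold change of -0.49 (95% interval from -1.00 to 0.03, exact permutation test, two-sided, p = 0.2). With the replicate block the interval ran from -0.88 to -0.09 and the gene was called. The pairs differed by -0.16, -0.67 and -0.63, so that pair 1 gave the smallest difference, and without tdp1-/- replicate 1 *topbp1* was called in the fit without the block as well, at -0.63. Without tdp1-/- replicate 2 it was at -0.29 and not called.

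The differences of the genes of the clamp and its loader lay closer to 0. Rad17 loads the Rad9-Rad1-Hus1 ring, and *rad17* measured from 4.87 to 5.20 in tdp1WT and from 4.66 to 5.04 in tdp1-/- embryos, with a log2 fold change of -0.16 (95% interval from -0.55 to 0.23) and pair 1 at 0.015. The ring subunit gene *rad9a* measured from 5.37 to 5.56 in tdp1WT and from 5.33 to 5.41 in tdp1-/- embryos. The genotype difference came to -0.11 on the log2 scale (95% interval from -0.42 to 0.20), lower in all 3 pairs. Neither gene was called with or without the block.

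The mediator gene *clspn* had the widest spread among arrays. It measured 6.20, 5.21 and 5.72 in tdp1WT and 5.35, 4.84 and 5.54 in tdp1-/- embryos. Replicate 2 was the lowest in both genotypes, and in each it lay further below the next array than the genotype means lay apart. The means were 5.71 ± 0.49 and 5.24 ± 0.36 (SD, n = 3 arrays of each genotype). This is 1.38-fold lower in tdp1-/-, or a log2 fold change of -0.47 (95% interval from -1.14 to 0.21, exact permutation test, two-sided, p = 0.3). The pairs differed by -0.85, -0.37 and -0.18, all lower. With the replicate block the standard error went from 0.29 to 0.17, the interval ran from -0.90 to -0.03 and *clspn* was called. Without tdp1WT replicate 2 the log2 fold change was -0.72 and the gene was called without the block, and without tdp1WT replicate 1 it was -0.22.

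The effector kinase gene *chek1*, which relays the Atr signal to the cell cycle, measured 4.88, 4.84 and 5.12 in tdp1WT and 4.57, 4.41 and 4.91 in tdp1-/- embryos. Replicate 3 was the highest in both genotypes, and its tdp1-/- array was the only one inside the tdp1WT range. The tdp1-/- values of replicates 1 and 2 lay below the medians of their arrays, 4.66 and 4.81. The genotype difference came to -0.31 on the log2 scale (95% interval from -0.73 to 0.10, exact permutation test, two-sided, p = 0.3), or 1.24-fold lower. The 3 pairs differed by -0.30, -0.43 and -0.21, an SD of 0.11, against an SD of 0.28 among the pairs of *topbp1* and 0.34 among those of *clspn*. With the block the interval ran from -0.62 to -0.007, the unadjusted p from limma was 0.0467 and *chek1* was called, just inside the threshold. Without tdp1-/- replicate 3 and with no block the value was -0.45 and the gene was called, whereas without tdp1-/- replicate 2 it was -0.20 with no call.

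**Figure D2:**
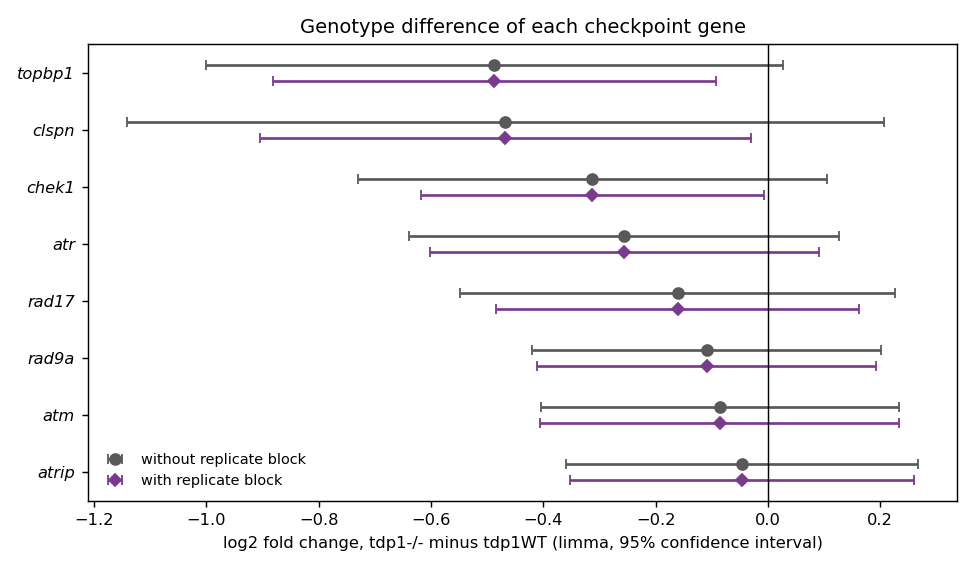
Log2 fold change of tdp1-/- minus tdp1WT (horizontal axis) for each measured checkpoint gene with its 95% interval from limma, without the replicate block (grey circles) and with it (purple diamonds), ordered by value. Without the block every interval spans 0, and with it those of *topbp1*, *clspn* and *chek1* lie below 0.

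The values also differed between replicate numbers. Taking the mean of both genotypes for each replicate number, replicate 2 was the lowest of the 3 in 6 of the 8 genes and replicate 3 the highest in 5. The tdp1-/- array of replicate 2 gave the lowest value of all 6 arrays in 6 genes and that of replicate 3 in the other 2, and no tdp1WT array was the lowest for any gene. With each gene centred on its own mean over the 6 arrays, the mean over the 8 genes was 0.18, -0.01 and 0.19 in tdp1WT replicates 1, 2 and 3 and -0.07, -0.29 and 0.001 in tdp1-/- replicates 1, 2 and 3. The third tdp1-/- array was thus above the second tdp1WT array, although it was below its own partner.

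The genes whose products work beside these 8 were taken from lists of the same pathway. Of 46 other genes on these lists 43 were measured, of which 25 were below 0, and their median log2 fold change was -0.06. The share of all genes below 0 was 51.4%. In limma 5 were called lower and none higher, against 1.04% of all genes lower. With the block the count was again 5 lower and none higher, against 2.49% of all genes lower. No adjusted p was under 0.05, the lowest being 0.739 with the block.

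Of the 5 genes called lower without the block, 2 belong to fork protection and clamp loading. Replication protein A coats the DNA that Atrip binds, and its subunit gene *rpa2* fell by 0.56 on the log2 scale, with pairs of -0.68, -0.57 and -0.42 and no overlap between the genotypes. The subunit gene *rpa1* had a log2 fold change of -0.33 and was called only with the block, while *rpa3* had -0.009. Replication factor C subunits join Rad17 to load the ring. Of these *rfc2* fell by 0.37 on the log2 scale without overlap and was called in both fits, and *rfc3*, *rfc4* and *rfc5* had -0.11, -0.25 and 0.05 with no call. The *rfc2* values are of the higher of its 2 rows, and the other row is not given here. The fork protection gene *timeless* had -0.31 and was not called. Counting *clspn*, 2 of 9 measured genes of fork protection and clamp loading were called lower without the block and 4 with it. Of all genes, 1.04% were called lower without the block and 2.49% with it, and 4.08% were lower without overlap.

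The genes of Atr activation outside the 8 did not pass the threshold. The list of Atr activation had 9 measured genes, 5 of them among the 8, and all 9 were below 0 at a median log2 fold change of -0.14. The share of all genes below 0 was 51.4%. The 4 that are new here, *rhno1*, *rad1*, *rad9b* and *etaa1a*, had -0.20, -0.09, -0.14 and -0.10, and none was called with or without the block. The row of *rad9b* is dim, below the array median on every array. On the side of double-strand breaks, *rad50* of the complex that recruits Atm fell by 0.38 on the log2 scale, without overlap and in both fits. Its partners *mre11a* and *nbn* had -0.14 and -0.13 and were not called. The ubiquitin ligase genes *rnf168* and *rnf8* had -0.16 and 0.03, and the break-site protein gene *mdc1* -0.08, again with no call. The histone variant gene *h2ax* had 0.15, on a dim row below the array median on every array. That list held 1 lower call among 9 genes in each fit, against 1.04% of all genes without the block and 2.49% with it.

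Among the cell cycle genes on which the checkpoint acts, the kinase genes *cdk1* and *cdk2* fell by 0.58 and 0.49 on the log2 scale, and *cdk2* was no longer called with the block. The pairs of *cdk2* were uneven, at -0.06, -0.99 and -0.42. The phosphatase genes *cdc25b* and *cdc25d*, which release Cdk1, had -0.20 and 0.25. The opposing kinase genes *wee2* and *pkmyt1* had 0.30 and 0.05, and none of these 4 was called. The gene *wee1*, also listed, was only on a row shared with other symbols and so has no value. The rows of *cdc25d* and *wee2* are dim, below the array median on every array. The row of *cdk1* lay below the array median on each tdp1-/- array and above it on each tdp1WT array. The list was split, with 5 of 9 genes below 0, against 51.4% of all genes. Without the block 2 of the 9 were called lower and with it 1, against 1.04% and 2.49% of all genes. The 5 genes below 0 were each lower in all 3 pairs, against 16.8% of all genes. The 2 genes higher in all 3 pairs, against 14.4% of all genes, were *cdc25d* and *wee2*.

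Genes of the transcriptional output of the damage response did not share the negative sign. Of 7 measured, 6 were above 0 at a median log2 fold change of 0.08, and none was called in either fit. The share of all genes below 0 was 51.4%. The Cdk inhibitor gene *cdkn1a* had 0.18 (pairs of 0.09, 0.22 and 0.22), the phosphatase gene *ppm1da* 0.19 and the ubiquitin ligase gene *mdm2* 0.08.

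**Figure D3:**
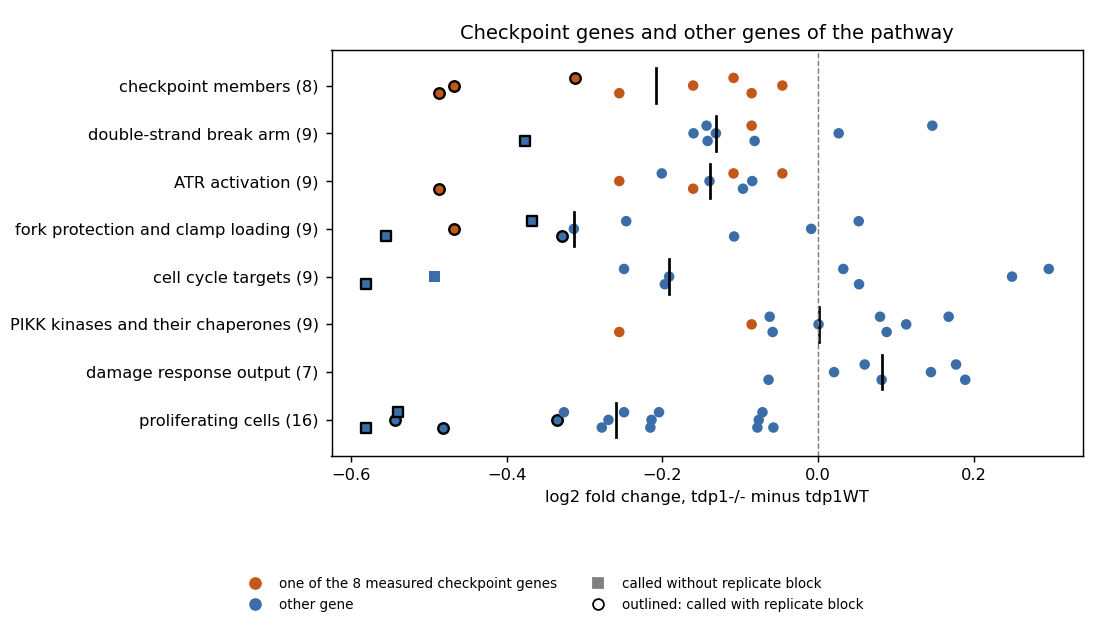
Log2 fold change of tdp1-/- minus tdp1WT (horizontal axis) for each measured gene of 8 lists (rows, number of genes in parentheses), with the 8 checkpoint genes in orange, other genes in blue, squares for genes called without the replicate block, black outlines for genes called with it, and a bar at the median of each list. Some genes stand in several lists. The median is -0.21 for the checkpoint genes, -0.31 for fork protection and clamp loading, -0.26 for proliferating cells and 0.08 for damage response output.

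Several checkpoint genes, *chek1* and *clspn* among them, are known to be transcribed mainly in dividing cells, and markers of such cells were lower on the same arrays. Of 20 listed markers of proliferating cells 16 were measured, all below 0 at a median log2 fold change of -0.26. Of all genes, 51.4% were below 0. Without the block 2 of the 16 were called lower, *cdk1* and *tyms*, for thymidylate synthase, against 1.04% of all genes. With it the count was 5, adding the replication genes *mcm3* and *rrm1* and the mitotic motor gene *kif11*, against 2.49% of all genes. The markers *pcna*, *top2a*, *plk1* and *aurkb* had -0.08, -0.06, -0.08 and -0.07 and were not called. The rows of *kif11* and *top2a* are dim, with values below the array median on every array. Lower in every pair were 9 of the 16, against 16.8% of all genes. The mean log2 level of the 16 lay from 5.94 to 6.25 on the tdp1WT arrays and from 5.65 to 5.99 on the tdp1-/- arrays. In the same-numbered pairs this mean differed by -0.33, -0.29 and -0.22, beside -0.25, -0.28 and -0.19 for the 8 checkpoint genes. As for the checkpoint genes, the tdp1-/- array of replicate 2 was the lowest. That array was also the lowest for the mean of the epidermis, photoreceptor, heart and erythrocyte markers, each lower in every pair. It was not the lowest for the neuron, muscle, lens, liver or pancreas markers. The profile is thus not particular to markers of dividing cells. The part of proliferating cells in the values of the checkpoint genes was not tested. In RNA of whole embryos, fewer cells of a type and less RNA per cell cannot be told apart.

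Without the block, markers of single tissues gave 6 lower calls and no higher call among 29 measured, against 1.04% of all genes lower and 0.852% higher. They were *krt5*, *krt91* and *icn2* of 4 epidermis markers, *hbae1.1* and *alas2* of 3 erythrocyte markers, and *myh6* of 4 heart markers. Of these *krt91* and *hbae1.1* had 2 rows each, and only the higher row is given here. With the block 7 were called lower and 1 higher, against 2.49% and 1.55% of all genes. The photoreceptor markers *pde6c* and *saga* were then called lower and the lens marker *grifin* higher, and *alas2* lost its call. All 3 photoreceptor markers and all 4 epidermis markers were lower in every pair, against 16.8% of all genes. The photoreceptor markers had a median log2 fold change of -0.34 and pairs of their mean at -0.33, -0.47 and -0.19. The median was 0.17 over 4 lens markers and -0.0017 over 4 muscle markers. The mean level of the 4 epidermis markers lay from 9.09 to 9.32 on tdp1WT and from 8.57 to 8.93 on tdp1-/- arrays. The part of tissue make-up in the checkpoint values was not tested either.

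**Figure D4:**
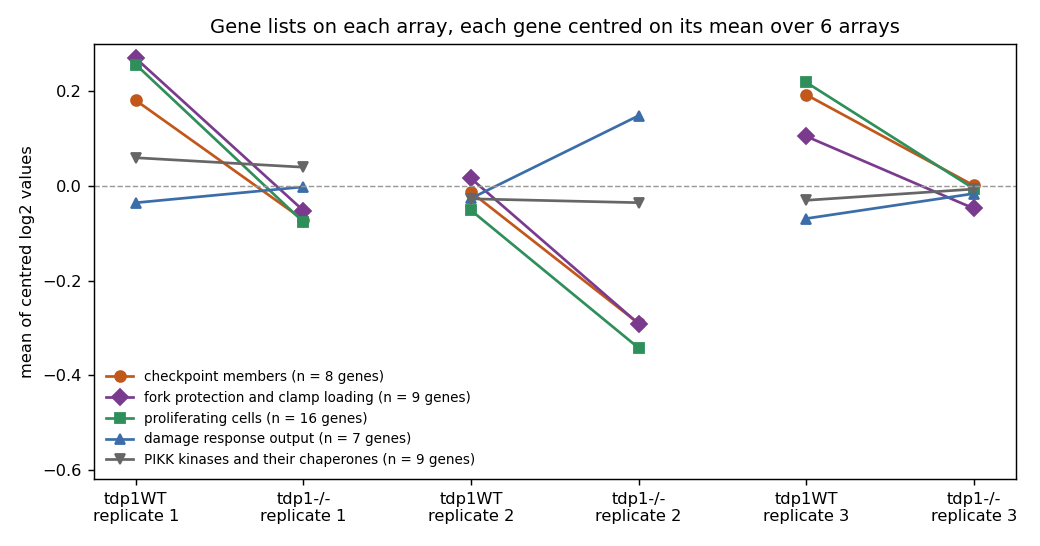
Mean over the genes of a list of log2 values centred on each gene's own mean (vertical axis) for each of the 6 arrays (horizontal axis), with lines joining same-numbered tdp1WT and tdp1-/- arrays, for 5 lists of 7 to 16 genes. The checkpoint genes, fork protection genes and proliferation markers are lower on the tdp1-/- array of each pair, by 0.15 to 0.33, and the damage response output genes are higher, by 0.03 to 0.17.

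The genes whose 6 array values followed the mean profile of the 8 most closely were *oat*, *rhoua*, *ssrp1a*, *clec11a* and *rab40c*. Likeness was measured as the root mean square difference between centred log2 values over the 6 arrays, which was 0.031 for *oat*, an ornithine aminotransferase, and 0.035 for *ssrp1a*, a subunit of the histone chaperone FACT. Their log2 fold changes ran from -0.24 for *rhoua* to -0.18 for *ssrp1a*, and none of the 5 had an unadjusted p under 0.05 in limma. Because the 5 were chosen by likeness to this profile, their log2 fold changes were bound to lie near its own and are no separate result.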

How the data were processed

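The study's arrays were labelled with the Affymetrix WT plus protocol and the authors normalized them by RMA in the Transcriptome Analysis Console. The deposited values are on the log2 scale, 1 for each of 75212 transcript clusters and array. The genome build behind the clusters is not given in the sources used here. A platform annotation gives 1 symbol to 20806 rows, several to 855 and none to 53551.

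From the deposited log2 values, limma 3.58.1 in R 4.3.3 (lmFit and eBayes) was fitted over all rows to tdp1-/- minus tdp1WT, with Benjamini-Hochberg adjustment over all rows and 95% intervals. The fits were also tested on simulated data. The planted differences there were larger than those of the checkpoint genes, and no replicate effect was simulated. That test therefore does not cover differences of their size or paired arrays. The number of arrays limits the precision. The deviations of same-numbered arrays from the genotype means correlated with r of 0.203, 0.216 and 0.29 over all rows, all above 0.1. Between unlike numbers r ran from -0.285 to 0.083. Deviations from a genotype mean cancel over its arrays, so positive r for same numbers makes r for unlike numbers lean negative. Over 3 arrays of each genotype such correlations do not by themselves show a shared experiment. The fit with the replicate number as a block is given beside results it changes.

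The members and lists were chosen with earlier results of these data known. Named are the 8 measured members, *tdp1*, from each pathway list the 2 genes with the smallest p and each called gene, and the 5 genes of the most similar profile. Remaining list members named for their place in a complex, and the marker genes, were chosen after their values were seen. Alternatives were the block, 2 further normalizations, a filter on dim rows, duplicate rows counted once, a variance trend, the mean of a gene's rows and leaving out each array.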

Additional observations from a re-analysis of the deposited data

How the results depend on the processing

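With the replicate block *chek1*, *topbp1* and *clspn* were called lower at log2 fold changes of -0.31, -0.49 and -0.47, the same values as without it, and the number of checkpoint genes called lower went from 0 to 3. It changed the call of no other checkpoint gene. Leaving out 1 array gave from 0 to 2 lower calls. The log2 fold change then ranged from -0.63 to -0.29 for *topbp1*, from -0.72 to -0.22 for *clspn*, from -0.45 to -0.20 for *chek1*, from -0.39 to -0.16 for *atr* and from -0.10 to 0.0071 for *atrip*, which turned its sign without tdp1-/- replicate 2. It ranged from -0.15 to -0.03 for *atm*, from -0.24 to -0.05 for *rad17* and from -0.16 to -0.06 for *rad9a*, none of them called. The median of the 8 stayed between -0.29 and -0.15 without each array in turn. Under the 7 other alternatives the median lay between -0.23 and -0.16. The -0.16 is over the 7 genes that the filter on dim rows left, without *topbp1*. In the blocked fit, leaving out 1 pair gave from 0 to 1 lower calls, and a further quantile normalization or median centring gave 3 each. These alternatives to the blocked fit were chosen after seeing the data, and leaving out a pair leaves fewer arrays. The row of *topbp1* did not pass the filter on dim rows, which gave it no value. Over all rows, 970 were called lower and 1718 higher without the block, 1864 and 2966 with it, and 1548 and 1566 after the quantile normalization. Signal over background could not be judged from RMA values.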

Other observations

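The family of large kinases to which Atm and Atr belong did not move as one. Among the other 4, *prkdc*, which acts in end joining, had a log2 fold change of 0.08, *smg1* -0.06, *mtor* 0.0004 and *trrap* -0.06. The chaperone genes *telo2*, *tti1* and *tti2*, whose products keep these kinases stable, had 0.17, 0.11 and 0.09. *telo2* was higher in all 3 same-numbered pairs, by 0.11, 0.19 and 0.21. Over the 9 measured genes of the kinases and their chaperones, *atm* and *atr* included, the median was 0.0004, and none was called with or without the replicate block in limma, nor had an unadjusted p under 0.05.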
